A study of Mus musculus with 2 samples.

Results

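The set described here is the miR-200 family with Mir203 and Mir205, 7 miRNA genes known from epithelia, out of 1973 miRNA genes with a row in the deposited tables. The members were Mir200b, Mir200a and Mir429, which lie side by side on chromosome 4, Mir200c and Mir141, which lie side by side on chromosome 6, and the single loci Mir203 on chromosome 12 and Mir205 on chromosome 1. They were chosen by name, through the gene identifier of each row, and all 7 had a row and counts in both libraries. MicroRNA-seq, which counts short RNAs (here a size class under 30 nt from total RNA), was run on whole hearts of healthy B6NCrl mouse embryos at 13.5 days, with male and female embryos pooled. The design has 1 group of 2 libraries, replicate 1 and replicate 2, from separate biosamples of the same donor record, with no treatment, genotype or second tissue. The comparisons it allows are between members inside a library, and between the libraries.

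The miR-200 miRNAs are best known for keeping epithelial cells epithelial: they repress Zeb1 and Zeb2, transcription factors that switch off E-cadherin, and Zeb factors in turn repress both miR-200 clusters. miR-203 is a miRNA of the differentiating epidermis, where it represses the stem cell factor p63, and miR-205 is a miRNA of basal and progenitor cells of stratified epithelia. Most of an embryonic heart is muscle, endothelium and mesenchyme, wrapped in the epicardium, an epithelial sheet that gives rise to mesenchyme at about this age. A miRNA finds its targets mainly through its seed, bases 2 to 8 from its 5′ end, so members with the same seed share most of their predicted targets.

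The guide strand of each member is shown because the seed divides the family across its clusters, and the levels below follow that division. Sequences are from RefSeq on GRCm38.p6, where 7 of 7 members were found, written 5′ to 3′ with the seed in capitals.
miR-200b-3p: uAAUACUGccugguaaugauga
miR-429-3p: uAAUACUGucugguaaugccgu
miR-200c-3p: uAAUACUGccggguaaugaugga
miR-200a-3p: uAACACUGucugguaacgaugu
miR-141-3p: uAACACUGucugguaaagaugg
miR-203-3p: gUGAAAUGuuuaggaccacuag
miR-205-5p: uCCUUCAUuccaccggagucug
Mir200b, Mir429 and Mir200c carry the seed AAUACUG, here called the Mir200b seed group. Mir200a and Mir141 carry AACACUG, the Mir200a seed group. The seeds differ by the substitution U4C, counted from the 5′ end with the Mir200b base given before the Mir200a base. None of the 1738 mature mouse sequences in the RefSeq table outside the family carried either seed, and none shared the seed of miR-203-3p or miR-205-5p.

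Each cluster holds both seeds. In the direction of transcription, Mir200b comes before Mir200a, which starts 765 nt further on, and Mir429, which starts 1763 nt further on. On chromosome 6, Mir141 starts 405 nt after Mir200c. Within the family the guide strands of Mir200a and Mir141, from different chromosomes, were nearly the same molecule: over 22 bases they differed at C17A and U22G, outside the seed, and shared a run of 16 bases. Mir200b and Mir200c differed at U11G and A22G, and Mir200b and Mir429 at C9U, A19C, U20C and A22U. No other hairpin in the table shared more than 17 bases in a row with Mir200a or Mir141, or more than 14 with any other member, and those runs of 17 and 14 in the miR-200 hairpins were between family members.

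Sense counts, those on the strand of a miRNA gene, came to 45.9% of 12136246 reads in replicate 1 (5569959 counts) and 49.2% of 12282789 reads in replicate 2 (6039005 counts). Levels are given per 1000000 of those sense counts (CPM). A count of 0 allows up to 3 counts, which is 0.539 CPM for replicate 1 and 0.497 CPM for replicate 2. Reads that mapped to several places made up 26.9% and 28.0%. The read totals above count them apart from the gene rows, though whether any of them entered a gene row is not stated. The heart label was checked on muscle miRNAs: the 6 cardiomyocyte rows reached sums of 50724 and 53395 CPM in replicates 1 and 2, nearly all from Mir208b, Mir208a and Mir499, which are encoded inside myosin genes. The other 3 rows of that list held few counts. Mir1a-1 was at 4.07 ± 0.598 CPM, Mir133a-1 at 2.89 ± 1.30 CPM and Mir133a-2 had no count. These rows may lack reads that mapped to several places, so they do not give the level of miR-1 or miR-133. Intervals and floors below cover counting error alone, because PCR can copy a molecule into many reads, and nothing in the labels says how far the spread between the libraries is biological.

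The 7 members were present at a low level in the embryonic heart. They summed to 13535 counts in replicate 1, or 0.243% of sense counts (exact Clopper-Pearson 95% interval 0.239% to 0.247%), and to 11445 counts in replicate 2, or 0.190% (0.186% to 0.193%). The mean share was 0.216% ± 0.0378 (SD, n = 2). The summed level was 2430 and 1895 CPM, and the cardiomyocyte rows, through those myosin miRNAs, stood 20.9 times higher in replicate 1 and 28.2 times higher in replicate 2. Whether a low level comes from few cells that make a miRNA or from little RNA in each of many cells cannot be told apart in bulk tissue.

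Mir429 was the most abundant member. It had 5537 counts (994 CPM) in replicate 1 and 4669 counts (773 CPM) in replicate 2, a mean of 884 ± 156 CPM (SD, n = 2) and rank 84 of all rows. Mir429 made up 40.9% and 40.8% of the counts of the 7 members, the steadiest share in the set. The rows with the most similar mean were Mirlet7f-2 at 928 ± 90.8 CPM and Mir145a at 899 ± 44.7 CPM above it, and Mir434 at 872 ± 73.7 CPM and Mir467e at 843 ± 17.4 CPM below it. These 4 differed from Mir429 by at most 0.07 in log2 mean CPM, which is less than the spread of Mir429 between the libraries. Likeness here is of level alone, over 2 libraries.

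Mir200b and Mir200a, the neighbours of Mir429, were lower. Mir200b had 1522 counts (273 CPM) in replicate 1 and 1403 counts (232 CPM) in replicate 2, a mean of 253 ± 28.9 CPM. Mir200a had 254 counts (45.6 CPM) in replicate 1 and 246 counts (40.7 CPM) in replicate 2, a mean of 43.2 ± 3.44 CPM and rank 228, the lowest of the set. The levels of the chromosome 4 members did not overlap in any pair of libraries. Mir200a sat among Mir760 at 44.2 ± 2.59 CPM, Mir7-1 at 43.6 ± 3.59 CPM, Mir103-2 at 42.2 ± 10.4 CPM and Mir138-1 at 42.1 ± 2.41 CPM, none of which stood apart from it by more than its spread.

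The miRNAs of the chromosome 6 cluster were likewise unequal. Mir200c had 2771 counts (497 CPM) in replicate 1 and 2208 counts (366 CPM) in replicate 2, a mean of 432 ± 93.2 CPM, second only to Mir429. Mir141 had 293 counts (52.6 CPM) in replicate 1 and 301 counts (49.8 CPM) in replicate 2, a mean of 51.2 ± 1.95 CPM. In both clusters the member with the AACACUG seed was therefore the lowest, and in neither library did such a member reach 60 CPM.

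Outside the family, Mir203 had 2231 counts (401 CPM) in replicate 1 and 1950 counts (323 CPM) in replicate 2, a mean of 362 ± 54.9 CPM. Mir205 had 927 counts (166 CPM) in replicate 1 and 668 counts (111 CPM) in replicate 2, a mean of 139 ± 39.5 CPM. Both epidermal miRNAs were thus counted well above the floor, and Mir203 was higher than Mir205 in each library. Together they gave 23.3% of the members' counts in replicate 1 and 22.9% in replicate 2. The 5 miR-200 miRNAs gave the other 76.7% and 77.1%.

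**Figure D1:**
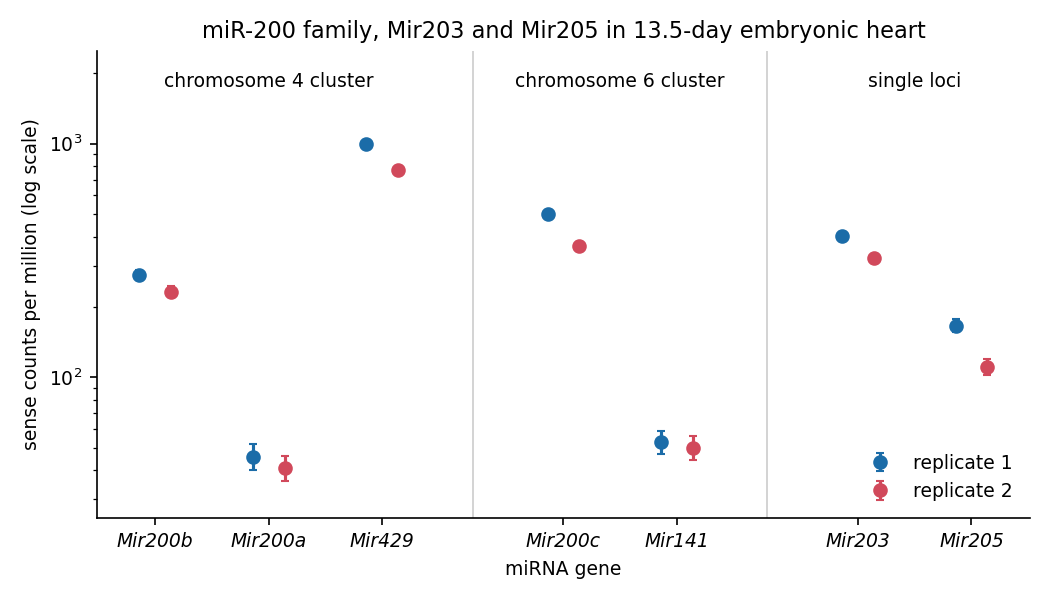
Sense CPM (log axis) of each member in replicate 1 and replicate 2, with exact 95% intervals that cover counting error only. Mir429 is highest at 994 and 773 CPM, and Mir200a and Mir141 are lowest, between 40.7 and 52.6 CPM in both libraries.

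The order of levels was the same in both libraries: Mir429, Mir200c, Mir203, Mir200b, Mir205, Mir141 and Mir200a. Inside a library, depth cancels from the ratio of neighbours in that order, so the order can be read against counting error. Mir200c over Mir203 was 1.24 (exact conditional binomial 95% interval 1.17 to 1.31) in replicate 1 and 1.13 (1.06 to 1.20) in replicate 2, a small difference that nonetheless had the same direction in both. Mir141 over Mir200a was 1.15 (0.972 to 1.37) in replicate 1 and 1.22 (1.03 to 1.45) in replicate 2. The order of the 2 lowest members was thus not distinguishable from counting error in replicate 1. Mir203 in replicate 1 was above Mir200c in replicate 2, so across libraries these neighbours overlapped; no other pair of neighbours did. Mir203 over Mir205 was 2.41 (2.23 to 2.60) in replicate 1 and 2.92 (2.67 to 3.19) in replicate 2. No test over libraries was run on such ratios, since an exact permutation of signs over 2 libraries gives a p of at least 0.5.

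The chromosome 4 cluster outweighed the chromosome 6 cluster. It summed to 7313 counts (1313 CPM) in replicate 1 and 6318 counts (1046 CPM) in replicate 2, against 3064 counts (550 CPM) and 2509 counts (415 CPM) for the chromosome 6 cluster. The ratio of the clusters was 2.39 (2.29 to 2.49) in replicate 1 and 2.52 (2.40 to 2.64) in replicate 2, or 1.29 ± 0.0547 on the log2 scale (SD, n = 2). The intervals of the libraries overlapped. The distance of the mean from 0 was many times the SD, but an SD over 2 libraries measures spread only loosely and is no test. Mir429 carried most of the chromosome 4 sum: Mir429 over Mir200c was 2.00 (1.91 to 2.09) in replicate 1 and 2.11 (2.01 to 2.23) in replicate 2. Mir200b was below Mir200c, with Mir200c over Mir200b at 1.82 in replicate 1 and 1.57 in replicate 2. When each cluster was represented by the geometric mean of its members, the log2 difference was 0.52. That mean does not grow with the number of members, and it also gives the highest member less weight. How much of the drop comes from each was not tested.

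Grouping by seed gave a wider gap than grouping by chromosome. The Mir200b seed group summed to 9830 counts (1765 CPM) in replicate 1 and 8280 counts (1371 CPM) in replicate 2, against 547 counts in each library for the Mir200a seed group, which is 98.2 CPM and 90.6 CPM. The ratio was 18.0 (16.5 to 19.6) in replicate 1 and 15.1 (13.9 to 16.5) in replicate 2, or 4.04 ± 0.175 on the log2 scale. The Mir200b seed group thus made up 72.6% and 72.3% of the counts of the 7 members, and the Mir200a seed group 4.04% and 4.78%. By geometric means of the members, the log2 difference was 3.28. The guide strands of Mir200a and Mir141 share a run of 16 bases. Whether their rows lack reads that mapped to several places was not tested.

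Neighbours made from the same stretch of genome were far apart. Mir429 over Mir200b was 3.64 (3.44 to 3.85) in replicate 1 and 3.33 (3.13 to 3.54) in replicate 2. Mir200b over Mir200a was 5.99 (5.24 to 6.87) in replicate 1 and 5.70 (4.98 to 6.56) in replicate 2. Mir429 over Mir200a, the highest over the lowest, was 21.8 in replicate 1 and 19.0 in replicate 2. Levels did not follow place in the cluster: the last hairpin was highest on chromosome 4 and lowest on chromosome 6. Mir200c over Mir141 was 9.46 (8.38 to 10.7) in replicate 1 and 7.34 (6.50 to 8.30) in replicate 2, the only pair of cluster neighbours whose intervals did not overlap between the libraries. How well each short RNA was captured into the libraries was not measured, so these are ratios of counts.

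**Figure D2:**
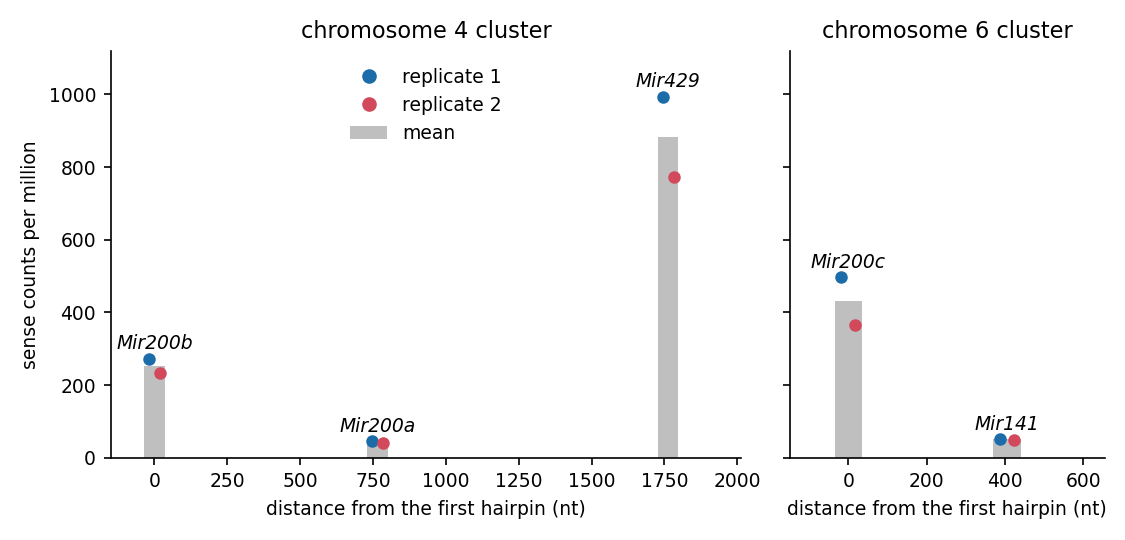
Sense CPM (linear axis from 0) of the miR-200 members against distance along the direction of transcription from the start of the first hairpin of each cluster, with the mean of the libraries as bars. Mir429, 1763 nt from the start of Mir200b, is the highest, while Mir200a and Mir141 stay below 60 CPM.

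**Figure D3:**
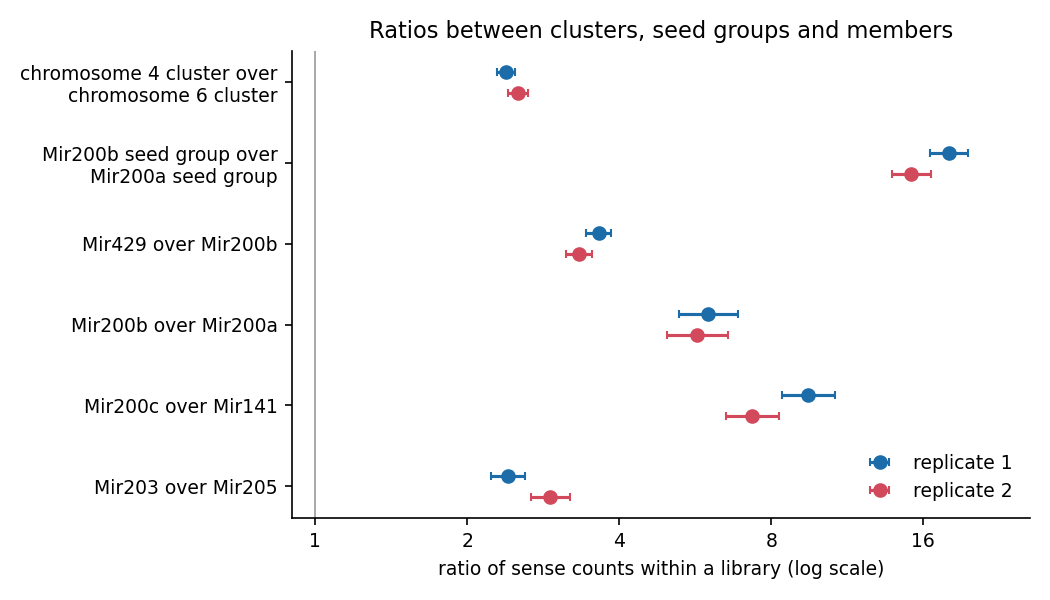
Ratios of sense counts inside each library (log axis) with exact conditional binomial 95% intervals for replicate 1 and replicate 2. The seed group ratio, 18.0 and 15.1, is the largest drawn, and the ratio of the clusters, 2.39 and 2.52, is among the smallest.

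The hairpins of Mir429 and Mir200a are shown because they differ 20.3-fold in counts (geometric mean of the libraries) while coming from the same strand of the same locus; each is written in lower case with the guide strand in capitals.
Mir429: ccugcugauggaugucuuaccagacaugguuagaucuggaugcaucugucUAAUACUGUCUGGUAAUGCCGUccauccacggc
Mir200a: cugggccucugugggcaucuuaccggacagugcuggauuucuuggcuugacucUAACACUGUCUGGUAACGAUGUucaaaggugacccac
The tables give a single count for each hairpin, so the strands of a hairpin are not separated. The hairpins lie at chr4:156053905-156053987 and chr4:156054896-156054985 on the minus strand of GRCm38, the same build as the mm10 of the tables, and Mir200b at chr4:156055681-156055750. In GENCODE M21 all 3 lie in introns of Ttll10 on the same strand. Mir200b and Mir200a also lie in an intron of the noncoding Gm13648, and Mir429 in its exon. Mir200c at chr6:124718322-124718390 and Mir141 at chr6:124717914-124717985 lie on the minus strand in an intron of the noncoding Gm15884, between the coding genes Phb2 and Ptpn6. Mir205 at chr1:193507463-193507530, minus strand, lies in an exon of the long noncoding RNA 4631405K08Rik. No transcript spans Mir203, which lies at chr12:112130880-112130955 on the plus strand.

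Unequal counts are common among neighbouring miRNA genes in these libraries. Rows on the same strand no more than 10000 nt apart were joined into clusters, and those with a row at a mean of 10 CPM or more were kept, a comparison chosen after the data were seen. On the log2(mean CPM + 1) scale, the highest over the lowest row was 4.32 in the chromosome 4 cluster and 3.05 in the chromosome 6 cluster. Over the 49 other clusters the median was 5.03, with quartiles of 3.31 and 6.90. The chromosome 4 spread lay inside those quartiles and the chromosome 6 spread just below them. Both were under the medians for clusters of their size, 4.58 over 4 other clusters of 3 rows and 4.62 over 35 other clusters of 2 rows. In many other clusters the lowest row, such as Mirlet7a-1 or Mir30c-1, is a numbered gene copy that may lack reads mapped to several places. In a few it is a gene with a Gm name, such as Gm23363. How far such lowest rows widened the spread of the other clusters was not tested.

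**Figure D4:**
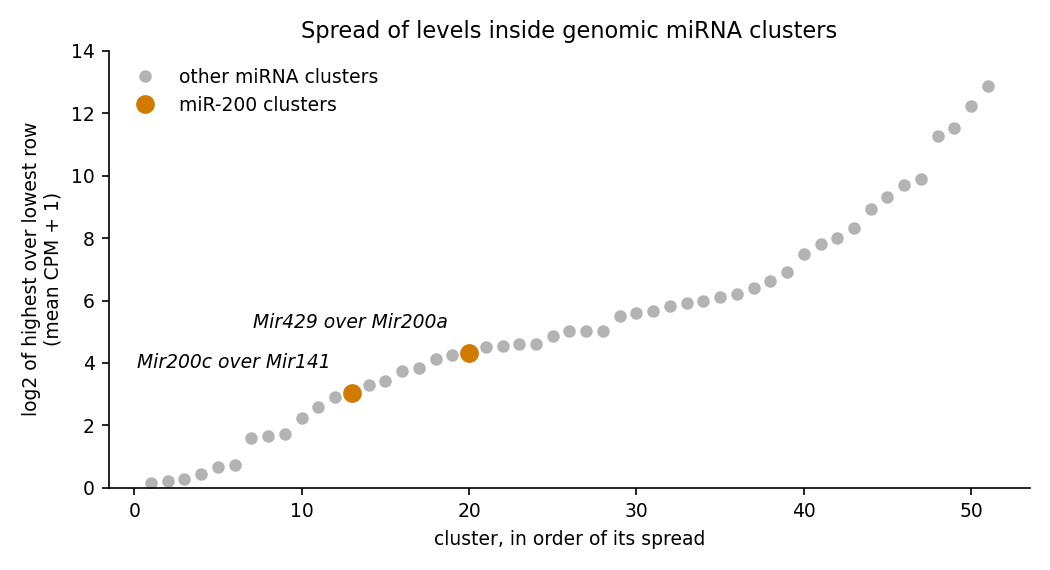
Difference between the highest and the lowest row of each miRNA cluster, as log2 of (mean CPM + 1), with clusters in order of that difference. The miR-200 clusters, at 4.32 and 3.05, lie below the median of the 49 other clusters, 5.03. In many of those the lowest row is a numbered gene copy that may lack reads mapped to several places.

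The libraries were compared at all 288 rows with a mean of 10 CPM or more, by an exact conditional binomial test (two-sided) with Benjamini-Hochberg adjustment over all of them. It compares the reads of these libraries, not conditions. A call needed an adjusted p below 0.05 together with a 1.5-fold ratio after adding 1 CPM. Of the 7 members 1, Mir205, was called, beside 5.9% of all rows, and it was higher in replicate 1, as were 4.86% of all rows. Its ratio lay on the threshold of 1.5 itself, at a log2 of 0.59. The adjusted p was 2.68e-15 in the exact binomial test. Mir205 was no longer called under TMM scaling (log2 0.48) or DESeq2 size factors (log2 0.47).

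On total counts 7 of 7 members had a higher CPM in replicate 1, beside 65.6% of all rows, though Mir141 turned round under TMM and DESeq2 scaling. Whatever the ratio, 5 of 7 were higher with an adjusted p below 0.05 in the exact binomial test, beside 43.1% of all rows. The log2 ratio was 0.44 for Mir200c, 0.36 for Mir429, 0.31 for Mir203 and 0.23 for Mir200b, with adjusted p of 1.81e-26, 6.53e-36, 1.31e-11 and 3.12e-05 in that exact binomial test. Mir200a at 0.16 (adjusted p = 0.279, exact binomial test) and Mir141 at 0.08 (adjusted p = 0.582, exact binomial test) did not pass. The members that passed are those above 100 CPM, and the lowest members also had the fewest counts behind their ratio. The median over the members was 0.31, against 0.10 over all rows and 0.11 over the 145 rows that lie between Mir200a and Mir429 in level.

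The direction of the small differences depends on the scaling. TMM moved the median of all rows to -0.0031 and DESeq2 size factors moved it to -0.016, a shift of about 0.10 that turned Mir141 to -0.025 and -0.038. The DESeq2 size factors were 1 and 1, so that alternative compares the counts with no correction for their totals. TMM and DESeq2 scaling left the other 6 members above 0, beside 49.3% and 46.2% of all rows. The member medians were 0.21 and 0.19. Of the rows called, 14 were higher and 3 lower in replicate 1 on total counts, against 8 higher and 8 lower under either alternative. The clusters had like ratios between the libraries, at a log2 of 0.33 for the chromosome 4 cluster and 0.40 for the chromosome 6 cluster.

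**Figure D5:**
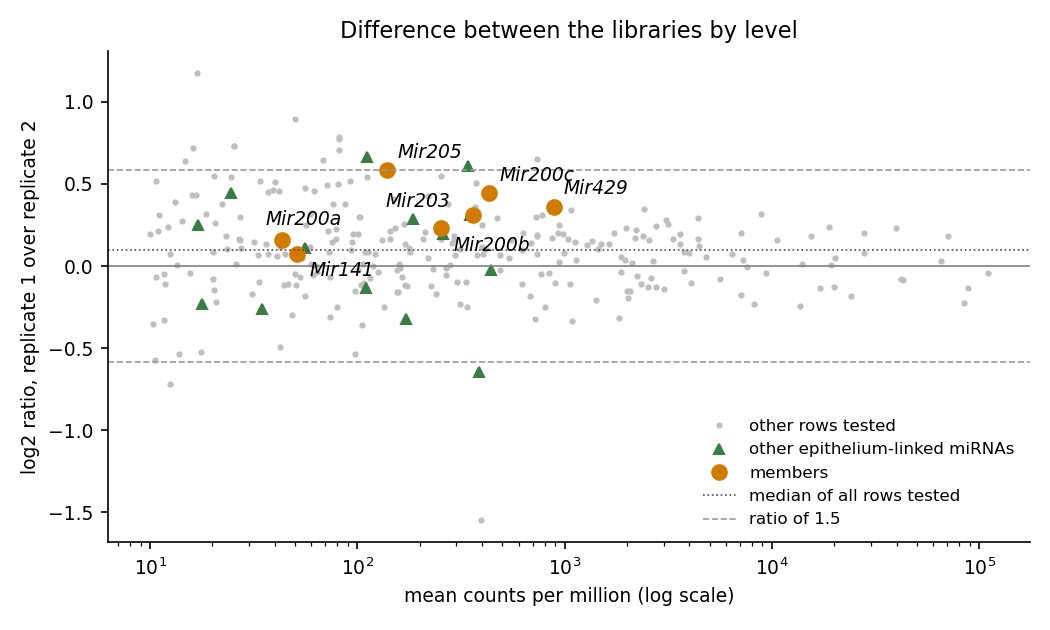
Log2 ratio of replicate 1 over replicate 2, after adding 1 CPM, against mean CPM (log axis) for the 288 rows tested, with the members and the other epithelium-linked miRNAs marked. All 7 members lie above 0 on total counts, between 0.08 and 0.59, beside 65.6% of all rows. Mir205 lies on the dashed line at a ratio of 1.5. Under TMM or DESeq2 scaling Mir141 falls below 0.

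Other miRNAs linked to epithelia, a list of 16 rows, did not move as a block. The list summed to 1.06 times the 7 members in replicate 1 and 1.29 times in replicate 2. As it has more rows, a row of the list was on average lower than a member. It holds the Mir183 cluster of sensory epithelia, and Mir34b, Mir34c and the Mir449 genes of ciliated cells. Mir375, Mir192, Mir194 and Mir215 of gut and endocrine epithelia are also on it, as are Mir34a, Mir31 and Mir224. The 7 members summed to 2430 and 1895 CPM in replicates 1 and 2, and the list to 2564 and 2444 CPM. Its highest rows were Mir34c at 440 ± 5.66 CPM, Mir375 at 386 ± 120 CPM and Mir182 at 350 ± 53.3 CPM. Of the 14 rows tested, 8 were on total counts higher in replicate 1, beside 65.6% of all rows. Their median log2 ratio was 0.15, against 0.10 over all rows. Mir183 (log2 0.61) and Mir96 (log2 0.66), made from the same cluster as Mir182, were called higher in replicate 1, and Mir375 (log2 -0.65) was called lower, which is 3 of 14 beside the 5.9% of all rows. Neither Mir183 nor Mir96 was called under TMM (log2 0.51 and 0.56) or DESeq2 size factors (0.49 and 0.55), while Mir375 was. Mir449b and Mir449c had 1 count in replicate 1 and 0 in replicate 2.

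Marker miRNAs of other cell types also differed between the libraries, and their part in the members' differences was not tested. The erythroid rows, led by Mir451a, had sums of 1261 and 959 CPM in replicates 1 and 2. Of these rows 3 of 3 were higher in replicate 1 on total counts, beside 65.6% of all rows. The 2 leukocyte rows went opposite ways, Mir223 with 441 and 310 CPM and Mir155 with 146 and 163 CPM. Mir122, the miRNA of hepatocytes, was at 201 and 591 CPM, lower in replicate 1. The 5 gut, pancreas and lung endoderm rows, all of which are also on the epithelium-linked list, summed to 611 and 749 CPM, a direction that rests on Mir375: the other 4 summed to 310 and 278 CPM, a sum taken after the data were seen. The 6 neural rows summed to 85.6 and 54.1 CPM, nearly all from Mir137, as the other 5 summed to 2.51 and 1.49 CPM. The 4 with no count, the Mir124a rows and Mir9-2, are numbered gene copies that may lack reads mapped to several places. Mir137 was called on total counts (log2 0.65) but not under TMM (0.55) or DESeq2 size factors (0.53). On total counts the erythroid, leukocyte and neural sums and the endothelial row were higher in replicate 1, like the sum of the members. The leukocyte sum, 587 and 473 CPM, was so through Mir223 and the neural sum through Mir137. Mir122 and the endoderm, cardiomyocyte, smooth muscle and mesenchymal sums were lower in replicate 1. The endothelial Mir126a was at 74876 and 66025 CPM, the smooth muscle rows, led by Mir143, at 85136 and 93532 CPM, and the mesenchymal rows, led by Mir21a, at 19693 and 20725 CPM. Without Mir21a the mesenchymal sum was 3477 and 2932 CPM. Of the 4 mesenchymal rows tested, 3 were higher in replicate 1 on total counts, beside 65.6% of all rows. Under TMM and DESeq2 scaling 2 were, beside 49.3% and 46.2% of all rows.

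The members' counts lay almost wholly on the annotated strand, with an exception at Mir203. Of the counts at the Mir203 locus on both strands, 1.98% (exact 95% interval 1.45% to 2.64%) in replicate 1 and 2.06% (1.48% to 2.78%) in replicate 2 were on the opposite strand, where RefSeq places Gm51289, also named Mir203b. Its mature sequences are shown with bases 2 to 8 in capitals because they pair with the arms of Mir203 rather than repeat them.
miR-203b-3p: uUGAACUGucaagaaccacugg
miR-203b-5p: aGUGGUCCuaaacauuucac
Their seeds differ from that of miR-203-3p shown above and were shared with no other mature sequence in the table. GENCODE M21, by contrast, has no gene on that strand.

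The best known target sites of the family are in the 3′ UTRs of Zeb1 and Zeb2, and the sites are shown to make the seeds concrete; no mRNA was measured here. A site was taken as the reverse complement of the seed on the mRNA strand, CAGTATT for the Mir200b seed group and CAGTGTT for the Mir200a seed group, searched on that strand alone. In the longest 3′ UTR of 21037 coding genes (GENCODE M21), 13.3% held CAGTATT and 17.2% held CAGTGTT at least once. The Zeb2 UTR of 4941 nt held 5 and 4 matches, and the Zeb1 UTR of 2401 nt also held 5 and 4. Counts this high were found in 0.0285% and 0.247% of all UTRs, and among UTRs of 0.8 to 1.25 times the Zeb2 length in 0.274% and 1.74% of 1094. The match nearest to the stop codon in Zeb2 for each seed group, at chr2:44988166-44988188 and chr2:44988350-44988372 on the minus strand of GRCm38, is printed with the match in capitals.
Mir200b seed group: ccatacatCAGTATTttattatt
Mir200a seed group: attttgtaCAGTGTTaaggccta
By counts, the loci whose guide strand pairs with CAGTATT held most of the miR-200 reads in these hearts.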

How the data were processed

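Both libraries were short RNA libraries of embryonic heart. Each deposited table lists counts of reads per miRNA gene, which the authors made on mm10 with GENCODE M4, per the deposited notes; the aligner, counter and adapter trimming were not given in the sources used here. Sense counts were used, and CPM were computed on their totals without the 4 read classes (unmapped reads were 21.2% in replicate 1 and 17.2% in replicate 2). Symbols and coordinates came from GENCODE M21, which matched 1894 of 1973 identifiers, and sequences from RefSeq. The members and lists were chosen with earlier results of these data known. Named genes were the 7 members, the 2 rows above and below the highest and the lowest member, the 3 highest other epithelium-linked rows and the highest row of each marker list; others were chosen after their values were seen. Ratios inside a library carry exact conditional binomial intervals, and rows were compared between libraries with the exact conditional binomial test and Benjamini-Hochberg adjustment. That test was tried on simulated Poisson counts alone. These hold no PCR copies or further spread between libraries, so its error rate in the real libraries was not tested. Alternatives were TMM (edgeR 4.0.16) and DESeq2 1.42.0 size factors in R 4.3.3, CPM minimums of 1 or any count, a ratio of 2, a pseudocount of 0.5 CPM, both strands, geometric means, shares of all reads, and each library left out. Computation used Python 3.11.15, numpy 2.4.6, pandas 2.3.3, scipy 1.17.1 and matplotlib 3.10.9.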

Additional observations from a re-analysis of the deposited data

Results flagged for a closer look

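Reads antisense to a member lay outside the measurements above and were looked at separately. At Mir203 they numbered 45 in replicate 1 and 41 in replicate 2, above the 3 counts that a count of 0 allows, on the strand where RefSeq annotates Gm51289. At Mir200a they numbered 5 in replicate 2, or 1.99% of the counts at that locus (exact 95% interval 0.650% to 4.59%), and 0 in replicate 1. The other 5 members had none in either library. Of the 288 rows at a mean of 10 CPM or more, 259 had no count on the opposite strand and 7 had more than 3 in both libraries.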

How the results depend on the processing

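The ratios of the clusters, of the seed groups and of Mir429 over Mir200b, Mir200b over Mir200a, Mir200c over Mir141 and Mir203 over Mir205 had the same direction under every alternative run for them. With 2 libraries, leaving out either gives the value of the other, and these values ran, in that order, over 1.26 to 1.33, 3.92 to 4.17, 1.73 to 1.86, 2.51 to 2.58, 2.87 to 3.24 and 1.27 to 1.55 on the log2 scale. Geometric means of the members lowered the log2 ratio of the clusters to 0.52 and that of the seed groups to 3.28. As a share of all reads the 7 members took 0.102% in place of 0.216%. Of all rows, 17 were called between the libraries, against 39 at a mean of 1 CPM or more, 45 at any count and 2 at a ratio of 2. The count of members called, 1, became 0 under TMM, under DESeq2 size factors and at a ratio of 2. Of the 288 rows tested, 16 were called under TMM, 16 under DESeq2 size factors and 2 at a ratio of 2. Mir141 changed sign, to -0.025 under TMM and -0.038 under DESeq2 size factors, and Mir200b (log2 0.12, adjusted p = 0.0504 in the exact binomial test) was no longer past the threshold under DESeq2 size factors. Why the scalings differ was not tested. The DESeq2 size factors were 1 and 1, which is no correction for the library totals. Relative to their level, the widest counting intervals are those of Mir200a and Mir141, with 246 to 301 counts a library. No paired analysis was possible because there is only 1 group.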
